A study of Xenopus laevis with 30 samples.

Results

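The change from early gastrula (stage 10.5) to late gastrula (stage 12) was followed in left and right half-embryos of Xenopus laevis, the African clawed frog, in 12 of 30 libraries of messenger RNA. They were set beside whole embryos, which gave 6 groups of 3 libraries each: left half-embryos, right half-embryos and undivided whole embryos, each at stage 10.5 and at stage 12. All embryos were of the Nasco strain, and no group carried a transgene or a mutation. The left and right half-embryos were cut at stage 8, the blastula, in Barth's solution and grown on in a more dilute Barth's solution, while embryos were kept in dilute Marc's Modified Ringers, so bisection and medium cannot be told apart in any comparison with whole embryos. The labels name the whole embryos as control. They do not say how many embryos went into a library, nor whether the replicate numbers 1 to 3 stand for separate clutches. The p-values below therefore rest on the spread among these libraries, which may be partly technical. Members of the comparison were the genes listed in the deposited tables of both stages, 14948 in all, out of 16673 listed at stage 10.5 and 15596 at stage 12. Dorsal and ventral half-embryos of the same study entered the fit and serve below as a reference for markers.

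Gastrulation turns the blastula into an embryo with 3 germ layers. Nodal-related signals and the Mix family of homeobox factors act early, at its onset, to set up endoderm and mesoderm, and the Spemann organizer on the dorsal side secretes antagonists of BMP and Wnt signals. By its end the ectoderm has separated into neural plate and epidermis, paraxial mesoderm has turned on myogenic genes, and posterior Hox genes are active. Messenger RNAs laid down in the egg are cleared over the same time. A cut along the midline leaves part of the organizer on both sides of it.

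RPKM values, which are read counts relative to gene length and library size, were deposited as 1 table per stage. In 100% of the 14948 shared genes the values of both tables were whole multiples of 1 common step, with a largest relative deviation of 1.3e-09 from a whole number, so gene lengths were the same in both tables and the values were compared across them. Left and right libraries held 3827323 to 5478044 reads in shared genes at stage 10.5 and 2699184 to 4717312 at stage 12, with a median of 111 and 66 reads per gene. Whole-embryo libraries held 3482484 to 3683370 and 2083538 to 2909191 reads. Because RPKM is relative to the library, and tissue was taken as a whole, fewer cells of a type and less RNA per cell cannot be told apart.

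The labelled tissue was first checked against markers of the dorsal and the ventral side. Organizer markers (chrd, gsc, nog, cer1, dkk1, frzb and admp, 14 gene copies) and ventral markers (szl, ventx, bambi, msx1 and bmp4, 12 copies) were both present in left and right half-embryos. In 1 library the organizer markers were reduced, with 1 of the 14 copies at 0. At stage 12 the summed RPKM of organizer markers was 832 to 1113 in 5 of the left and right libraries and 186 in the left library of number 2. Ventral half-embryos lay at 71.7 to 121 and dorsal half-embryos at 1136 to 1611. The ventral markers of that left library summed to 1703, against 826 to 1044 in the other 5 and 2201 to 2878 in ventral half-embryos. In it gsc.L was at 0 RPKM and admp.L at 0.722, where the other 5 libraries held 8.02 to 12.1 and 46.9 to 55.0. Its szl.L reached 161 RPKM, against 3.48 to 23.9. At stage 10.5 the right library of number 2 was the lowest in organizer markers, at 315 against 512 to 1106, with ventral markers at 990 against 781 to 926. By the summed markers the left library of number 2 at stage 12 lay between the 2 kinds, closer to the ventral half-embryos than to the other left and right half-embryos. Several results are given with and without it, and the others include it.

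**Figure D1:**
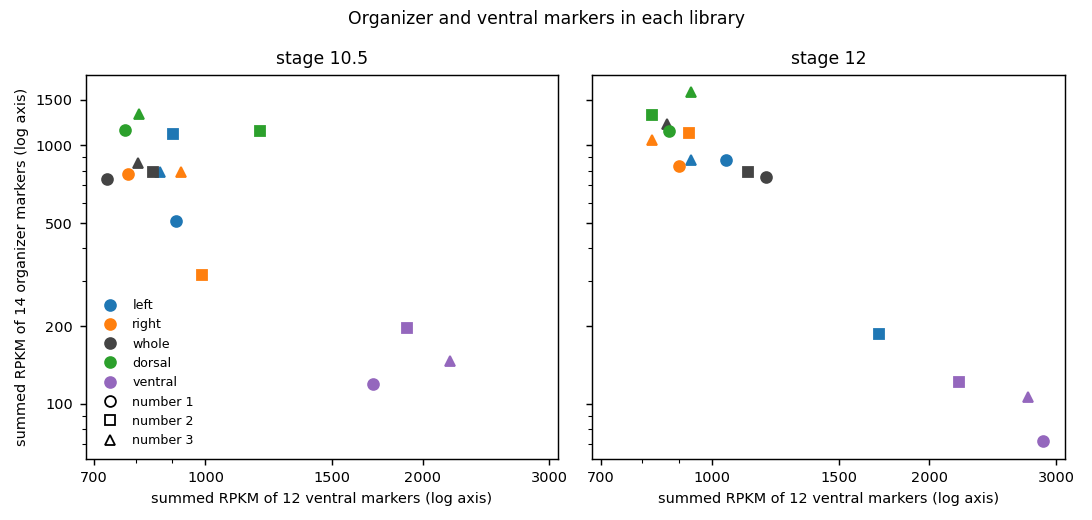
Summed RPKM of 14 organizer marker copies (vertical, log axis) against that of 12 ventral marker copies (horizontal, log axis) in each library at stage 10.5 and stage 12, coloured by kind of embryo and shaped by number. At stage 12 the left library of number 2 lies at 186 and 1703, nearer to the ventral half-embryos than to the other left and right libraries. Those lie at 832 or more for organizer markers.

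Between the stages, most measured genes of nodal signalling and of the egg fell in left and right half-embryos, and most ribosomal protein and paraxial mesoderm genes rose. Of 9 keratin genes 7 rose and 2 fell, of 4 gap junction genes 3 rose and of 4 laminin genes 3 rose. The keratin, gap junction and laminin families were picked after values were seen and hold some of the largest rises given below. Of the 14948 genes, 7606 were called in half-embryos, which is 50.9%, at an adjusted p of 0.05 or less by limma on log2(RPKM + 1). Of these, 2247 rose (15%) and 5359 fell (35.9%), and 385 rose and 1471 fell by 2-fold or more. Left and right libraries of 1 number correlated, so they are not 6 independent samples. With the mean of left and right of a number as 1 sample, 4962 genes were called, 1347 up and 3615 down. That fit shares 1 estimate of the spread with single libraries of the other embryos, so its counts, here and below, do not isolate the correlation. The median gene changed by -0.22 on the log2 scale with the deposited scaling, -0.05 with upper-quartile scaling and -0.01 with quantile normalization. The split of calls followed it, with 3377 up and 3865 down under upper-quartile scaling and 3464 up and 3554 down under quantile normalization. Changes are therefore read beside the median of all genes, and counts of a list beside the counts of all genes under the same scaling.

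The 8 largest rises included a pair of connexins, a keratin, a Wnt antagonist and a laminin. These rises, and the falls below, were taken among called genes whose half-embryo values did not overlap between stages. Their separation was thus set by the choice. Among all 14948 genes, 1203 had all 6 stage 12 values above those of stage 10.5, and 3181 had all below. gjb1.L, which codes for the gap junction protein connexin 32, had a lowest, median and highest value of 0, 0.839 and 2.72 RPKM in half-embryos at stage 10.5, and of 47.1, 61.4 and 82.0 at stage 12. Its 0 to 15 reads per library at stage 10.5 became 236 to 346. The log2 change was 5.02 ± 0.43 (SE; limma adjusted p = 1.96e-08). Whole embryos held 0.399, 0.753 and 0.383 RPKM of gjb1.L at stage 10.5 and 141, 187 and 52.5 at stage 12, a change of 6.23 ± 0.60. A second connexin, GJB2 (Xelaev18013796m), went from 4.11, 10.3 and 22.1 RPKM (lowest, median, highest) to 42.9, 101 and 141. Its log2 change was 3.04 ± 0.37 (limma adjusted p = 7.58e-07).

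krt.L, a keratin that the deposited table matches to human KRT19, went from 1.84, 8.92 and 25.7 RPKM to 39.1, 157 and 187. Its change of 3.79 ± 0.60 was close to that of whole embryos, 3.74 ± 0.85. The 2 keratins that fell are models that the deposited table also matches to KRT19, with changes of -0.71 for KRT19 (Xelaev18043110m) and -1.17 for KRT19 (Xelaev18045881m). The 2 models closest to human FCGBP, a mucin-like secreted protein, rose as well. FCGBP (Xelaev18036484m) went from a median of 1.09 to 32.2 RPKM and LOC100492852.L from 4.15 to 34.3, with log2 changes of 3.76 ± 0.38 and 2.86 ± 0.34. The right library of number 2 was the lowest of the 6 at stage 12 in all 3 of these genes, at 39.1, 6.57 and 15.1 RPKM. sfrp1.L, a secreted Wnt antagonist, rose by 2.86 ± 0.24 from 0.702, 1.33 and 2.70 RPKM to 13.9, 14.7 and 23.5. lamb1.L, the laminin beta 1 chain of basement membranes, rose by 2.69 ± 0.31 from a median of 4.72 to 35.3 RPKM. c8g.S, the gamma chain of complement component 8, completed the 8 largest rises, at 2.72 ± 0.39 on 0 to 7 reads per library at stage 10.5.

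The 8 largest falls included a Mix factor, a cyclin and an antagonist of the Cerberus family. mix1.S, a homeobox factor induced by nodal signals, held 64.3, 91.5 and 146 RPKM (lowest, median, highest) in half-embryos at stage 10.5 and 6.12, 8.46 and 15.7 at stage 12. The log2 change was -3.29 ± 0.28 (limma adjusted p = 2.33e-08). In whole embryos it went from 157, 96.3 and 168 RPKM to 13.2, 5.83 and 10.8. CCNB1 (Xelaev18010928m), a cyclin B that drives entry into mitosis, fell from 52.8, 67.8 and 112 RPKM to 3.99, 9.82 and 19.6, a change of -2.94 ± 0.32. Its paralogous model CCNB1 (Xelaev18008213m) fell by 2.68 on the log2 scale. Of 6 cyclin B genes 4 fell and 1 rose, with a median of -0.52, and ccnb3.S was the one that rose, by 0.39. Reads of such close copies may have been split by the counting, so each value is uncertain.

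dand5-like.1, named for an antagonist of nodal signals and closest to human CER1, fell from 9.49, 11 and 17.4 RPKM to 0.202, 0.763 and 2.08, a change of -2.83 ± 0.26. map1lc3c.L, a light chain 3 protein of autophagosomes, fell from a median of 16.9 to 0.902 RPKM (-3.04 ± 0.41), and dapl1.L from 35 to 3.81 (-2.79 ± 0.41). 2 further models without a described human match, LOC101733813.1 and Xetrov90000116m.S, changed by -3.01 ± 0.41 and -2.69 ± 0.37. All 16 of these largest changes were also called in whole embryos in the same direction, where they ranged from -3.72 for mix1.S to 6.23 for gjb1.L.

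**Figure D2:**
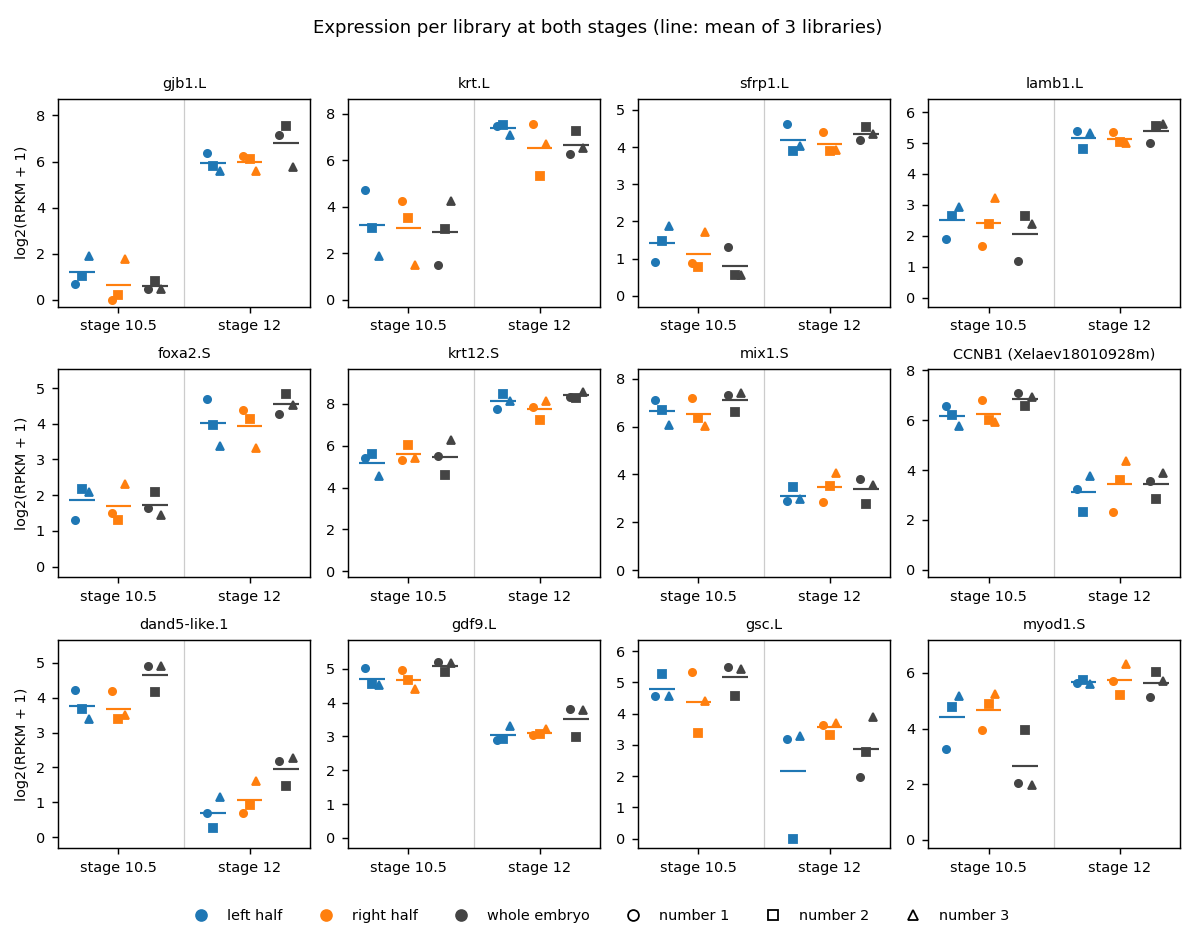
Expression of 12 genes as log2(RPKM + 1), vertical, in each library of left half-embryos, right half-embryos and whole embryos at both stages, with a line at the mean of 3 libraries. mix1.S and CCNB1 (Xelaev18010928m) fall and gjb1.L, krt.L and sfrp1.L rise in all 3 kinds of embryo, gsc.L is at 0 in the left library of number 2 at stage 12, and myod1.S starts lower in whole embryos.

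Signals and factors of mesendoderm fell as a group. Of 20 listed genes for nodal signals and mesendoderm, 16 fell and 1 rose, with a median log2 change of -1.24 against -0.22 over all genes. mix1.L fell by 2.62, and MIXL1 (Xelaev18026295m) fell by 2.60 from a median of 34.4 to 3.49 RPKM. mixer.S, a further Mix-type factor that acts in endoderm, fell from 81.1, 106 and 125 RPKM to 20.3, 32.9 and 51.9, a change of -1.63 ± 0.19. lefty.L and lefty.S, feedback inhibitors of nodal signals, fell by 0.97 and 0.98. In whole embryos 15 of the 20 fell and 1 rose, with a median of -1.62. A further 7 members were listed at stage 10.5 alone and 1, CFC1 (Xelaev18006975m), at stage 12 alone. Among the former were MIXL1 (Xelaev18028630m) at 6.37, 13 and 27.2 RPKM and nodal1.L at 4.10, 5.67 and 8.42. A gene enters a table with an average RPKM above 1, so absence from the stage 12 table gives no value. Over all genes, 1725 of the 16673 listed at stage 10.5 were listed there alone.

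Messenger RNAs of the egg fell too. Of 49 maternal oocyte and egg genes, 30 fell and 2 rose, with a median of -0.59, and 29 fell in whole embryos. gdf9.L, a growth factor of the oocyte, went from 20.3, 23.4 and 31.7 RPKM to 6.41, 7.36 and 8.94, and the change was -1.62 ± 0.17 in half-embryos and -1.57 ± 0.24 in whole embryos. mos.L, the kinase that holds the egg in meiotic arrest, fell from a median of 9.04 to 1.77 RPKM (-1.8 ± 0.23). WEE2 (Xelaev18019792m), an inhibitory kinase of the cell cycle, fell from 31.9 to 7.54 (-2.08 ± 0.26). Of 8 zona pellucida genes, which code for the egg coat, 6 fell and none rose. Of 18 germ plasm genes 9 fell, which is 50% against 35.9% of all genes, and 1 rose. Without the left library of number 2 at stage 12, 5 fell and 1 rose, beside 5257 falls among all 14948 genes. Under either upper-quartile scaling or quantile normalization 5 fell and 2 rose, beside 3865 and 3554 falls among all genes. In these alternatives the share that fell was near or below that of all genes. The member with the largest named fall was velo1.L, a vegetal pole gene, from 30.6 to 9.60 RPKM (-1.65 ± 0.23).

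Cell cycle genes were called in both directions. Of 73, 32 fell, which is 43.8% against 35.9% of all genes, and 13 rose, which is 17.8% against 15%. The median of -0.24 was close to that of all genes. Under upper-quartile scaling 22 fell and 21 rose, and under quantile normalization 29 fell and 18 rose. Both CCNB1 models and WEE2 lay at the lower end, and ccne1.S, a cyclin of the start of DNA replication, fell by 0.76. Of 63 histone genes 6 fell, among them HIST1H2AA (Xelaev18014220m) with a change of -2.32 ± 0.22, and 4 rose, among them H3F3B (Xelaev18045270m), a replacement histone H3, with 0.49 ± 0.07. The falls were 9.5% and the rises 6.3% of the histone list, both below the shares of all genes. The histones gave 8 up and 4 down under upper-quartile scaling, 3 up and 8 down under quantile normalization and 6 up and 10 down with the replicate block. H3F3B gave -0.03 under quantile normalization.

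Ribosomal protein genes rose almost throughout. Of 140, 123 rose and none fell, with a median of 0.73, against 15% rising among all genes. The 84 of the large subunit had a median of 0.71 and the 56 of the small subunit 0.75. rpl8.L went from 37.3, 45.2 and 69.0 RPKM to 108, 122 and 141 without overlap, a change of 1.36 ± 0.15 (limma adjusted p = 2.89e-07). rps13.L went from a median of 56.4 to 115 RPKM (1.06 ± 0.11). Whole embryos showed 119 of 140 rising and a median of 0.93. No ribosomal protein gene fell under upper-quartile scaling or quantile normalization, where 128 and 119 rose, and with the replicate block 131 rose and 1 fell.

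Of 4 measured transcripts encoded in mitochondria, ATP6 (Xelaev18004681m), a subunit of ATP synthase, fell, from 1049 to 1927 RPKM at stage 10.5 to 348 to 674 at stage 12 (-1.55 ± 0.27), and the other 3 were not called. With the replicate block 2 of the 4 fell, and under quantile normalization 3 did. Of 64 proteasome subunit genes 21 rose and 1 fell, and of 76 eukaryotic initiation factor genes 32 rose and 7 fell. Heat shock and chaperone genes were called in both directions, with 15 of 43 up and 10 down, with 17 up and 1 down under upper-quartile scaling, 14 up and 7 down under quantile normalization and 15 up and 14 down with the replicate block. hspa8.L, the constitutive Hsc70, went from 623, 712 and 872 RPKM to 1168, 1491 and 1852 (1.05 ± 0.14). Stage 10.5 whole embryos held 462, 487 and 364 RPKM of hspa8.L, all below the half-embryos, and stage 12 whole embryos 903, 1347 and 1064. That gap at stage 10.5 was not tested, and the share of all genes with such a gap is not given here.

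Among genes of the ectoderm, those of the epidermis rose on balance. Of 35 epidermis genes 17 rose and 2 fell, with a median of 0.47, and without the left library of number 2 at stage 12 the counts were 15 and 1. krt12.S, an epidermal keratin, went from 22.7, 41.6 and 64.0 RPKM to 150, 255 and 352, with a change of 2.54 ± 0.34. krt8.L, a keratin of simple epithelia, was abundant already at stage 10.5, at 307 to 369 RPKM, and reached 531 to 703 (0.89 ± 0.09). dlx3.L, a homeobox factor of non-neural ectoderm, rose by 1.26 from a median of 3.94 to 8.92 RPKM, and the left library of number 2 was the highest at 19.9. Of 20 genes of multiciliated cells and ionocytes 7 fell and 2 rose, with 5 down and 3 up under upper-quartile scaling and 3 down and 4 up under quantile normalization. The falls were 35% of the list, against 35.9% of all genes, so the share was that of the background. ca12.L, a carbonic anhydrase, fell by 0.84 and e2f5.L, an E2F factor used in multiciliated cells, by 1.28.

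Of 49 neural plate genes 14 rose and 5 fell, with a median of 0.33. With the mean of left and right of a number as 1 sample, 5 rose and 3 fell, and without the left library of number 2 at stage 12, 17 rose and 3 fell. Upper-quartile scaling gave 20 up and 2 down, and quantile normalization 23 up and 4 down. The 2 leading risers were models of GBX2, a homeobox factor of the posterior neural plate. GBX2 (Xelaev18044831m) went from 1.3, 2.70 and 5.94 RPKM to 9.09, 18.3 and 25.2 (2.2 ± 0.28), and GBX2 (Xelaev18044833m) rose by 2.12. SOX3 (Xelaev18042169m), a pan-neural SoxB1 factor already active in the blastula, fell from 174, 239 and 290 RPKM to 88.4, 144 and 156 (-0.78 ± 0.14). Among 34 neural crest and plate border genes 11 rose and 4 fell, and 10 rose and 2 fell without that library. MYC (Xelaev18034007m), a growth regulator active in crest, rose from 5.46, 12.3 and 19.4 RPKM to 29.8, 39.8 and 46.3 (1.68 ± 0.24). Of 14 placode and cement gland genes 3 rose and 2 fell, with a median of 0.05. Without that library 5 rose and 2 fell, with a median of 0.28. agr2.S, a cement gland gene, rose by 1.41.

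Genes of paraxial mesoderm rose on balance. Of 18 somite and muscle genes 11 rose and 3 fell, with a median of 0.69. The counts were 9 and 3 without the left library of number 2 at stage 12. TBX6 (Xelaev18001340m), a T-box factor, went from 9.18, 14.2 and 24.1 RPKM to 41.1, 65.3 and 79.8 (2.01 ± 0.23). TBX6 (Xelaev18002266m) rose by 2.08, whereas 2 other models closest to human TBX6 fell. TBX6 (Xelaev18007613m), at 272 to 362 RPKM far more abundant at stage 10.5, fell to 133 to 253 (-0.90 ± 0.14), and TBX6 (Xelaev18010507m) fell by 1.01. myf5.L, a myogenic factor, rose from 4.48, 7.18 and 11.7 RPKM to 21.1, 31.9 and 38.9 (1.83 ± 0.33). Of 31 genes of mesoderm and its patterning 15 rose and 7 fell. Without the left library of number 2 at stage 12, 13 rose and 4 fell, and 17 rose and 3 fell under upper-quartile scaling and 16 rose and 2 fell under quantile normalization. cdx4.L, a caudal-type factor of the posterior body, rose by 1.79, and t.L, brachyury, rose by 0.60 from 57.5 to 96.3 RPKM to 97.2 to 139.

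The 4 measured Hox genes rose, among them hoxd1.L by 1.04 from a median of 26.3 to 58.0 RPKM and hoxd1.S by 0.78. With right half-embryos alone none of the 4 was called, with left half-embryos alone 3 were, and 3 were called without the left library of number 2 at stage 12. A further 17 Hox genes were listed at stage 12 alone and 1, HOXC9 (Xelaev18039930m), at stage 10.5 alone. HOXC6 (Xelaev18013563m) held 3.52, 6.45 and 8.50 RPKM in half-embryos at stage 12, and hoxb1.S 2.19, 3.68 and 7.28. Also listed at stage 12 alone were 9 somite and muscle genes. Among them were actc1.S, cardiac alpha-actin, at 3.86, 7.83 and 12.8 RPKM, and PAX3 (Xelaev18029860m), a factor of dermomyotome and crest, at 3.07, 7.08 and 10.1. Over all genes, 648 of the 15596 listed at stage 12 were listed there alone. Such genes have no value at stage 10.5 here, so their change was not measured.

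Of 30 endoderm genes 9 rose and 1 fell, with a median of 0.08. Without the left library of number 2 at stage 12, 8 rose and 2 fell. Without the right library of number 2 at stage 10.5, 7 rose and 3 fell, with a median of -0.01, and with the replicate block 10 rose and 5 fell. foxa2.S, a forkhead factor of endoderm and midline, went from 1.47, 2.53 and 3.97 RPKM to 8.91, 15.6 and 25 (2.2 ± 0.29). a2m.S, a secreted protease inhibitor, went from 73.9, 164 and 267 RPKM to 322, 384 and 599 (1.42 ± 0.31). sox17a.L, a defining endoderm factor, was high and level, at 74.6, 87.2 and 144 RPKM and then 68.1, 103 and 116 (0.05 ± 0.15, not called).

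Organizer genes depended on 2 libraries. Of 32, 1 rose and 5 fell in all libraries, with a median of -0.10. Without the left library of number 2 at stage 12, 10 rose and 2 fell, with a median of 0.25. Without the right library of number 2 at stage 10.5 alone, 1 rose and 7 fell, with a median of -0.20. Without both, 10 rose and 4 fell, with a median of 0.15. gsc.L, goosecoid, a transcriptional repressor made in the organizer, fell from 9.44, 22.7 and 38.8 RPKM to 0, 8.94 and 12.1, a change of -1.72 ± 0.42. Without the left library its change was -1.18 ± 0.30 (limma adjusted p = 0.00248), and that of gsc.S moved from -1.85 to -1.41. admp.L, a BMP ligand of the organizer, was not called in all libraries (0.37 ± 0.54) and rose by 1.19 ± 0.27 without it (limma adjusted p = 9.51e-04). The 3 CHRD models, whose protein chordin binds BMP, held medians of 58.5 to 78.2 RPKM at stage 10.5 and 100 to 123 at stage 12. They were not called in all libraries, and without the left library all 3 rose, CHRD (Xelaev18027420m) by 1.12 ± 0.26, CHRD (Xelaev18027421m) by 1.12 ± 0.24 and CHRD (Xelaev18029538m) by 0.88 ± 0.26 (limma adjusted p of 0.00131, 5.66e-04 and 0.00721). The left library was singled out by low values of organizer markers, gsc, admp and chrd among them. The rises of these genes without it, and their p-values, are therefore partly set by that choice. The right library of number 2 at stage 10.5 stayed in these fits. It was low in organizer markers, with admp.L at 8.05 RPKM against 20.6 to 30.1 in the other half-embryo libraries of that stage, which makes the rises larger. In whole embryos 1 of the 32 organizer genes rose and 3 fell, with a median of 0.16. Notochord and floor plate genes gave 3 up and 2 down of 16 in all libraries, and 7 up and 1 down without the left library. In all libraries these were 18.8% and 12.5%, against 15% and 35.9% of all genes.

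On the ventral side 9 of 32 BMP pathway genes rose and 4 fell, and 7 rose and 4 fell without that library. GATA2 (Xelaev18023995m), a target of BMP, went from 10.5, 14.3 and 23.6 RPKM to 30.8, 42.1 and 94.5 (1.63 ± 0.26), with the left library of number 2 highest. bmp4.S, a ligand, rose by 0.62 and BMP7 (Xelaev18018155m), a second ligand, fell from 315, 339 and 447 RPKM to 86.1, 161 and 226 (-1.23 ± 0.16). msx1.L, a homeobox target, rose by 0.96 ± 0.21, and by 0.77 ± 0.20 without the left library. szl.L, the BMP-induced antagonist sizzled, was not called, at 8.2, 14.7 and 27.1 RPKM and then 3.48, 16.7 and 161.

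Among signalling pathways, calls in the Wnt list were mostly rises. Of 62 genes, 21 rose and 11 fell, with a median of 0.23. The counts were 18 and 10 without the left library of number 2 at stage 12. Besides sfrp1.L, the direct target axin2.L went from 1.37, 3.42 and 4.6 RPKM to 6.45, 12.5 and 20.2 (1.70 ± 0.23), lef1.S, a nuclear effector, rose by 1.64 and rspo2.L, an enhancer of Wnt reception, by 1.44. Of 16 frizzled receptor genes 8 rose and 2 fell. Of 44 Notch genes 16 rose and 7 fell, and 3 rose and 5 fell with the mean of left and right of a number as 1 sample. Without the right library of number 2 at stage 10.5, 10 rose and 7 fell. The counts were 12 and 8 without the left library of number 2 at stage 12. HES5 (Xelaev18037602m), a target, rose by 1.61, dll1.L, a ligand, by 0.67, and both MIB2 models, ubiquitin ligases for Notch ligands, fell by 1.15 and 0.99. Of 28 retinoic acid genes 13 rose and 3 fell, and 13 rose and 5 fell with the replicate block. MEIS2 (Xelaev18039368m), a cofactor of Hox proteins, went from 11.7, 18.4 and 26.4 RPKM to 35.9, 47.4 and 56.5 (1.28 ± 0.17), while RXRG (Xelaev18025612m), a retinoid X receptor, fell by 1.8. The 40 FGF genes gave 7 up and 8 down, which is 17.5% and 20% against 15% and 35.9% of all genes. They gave 11 up and 5 down under upper-quartile scaling and 10 up and 5 down under quantile normalization. The share of rises was near that of all genes. fgfr1.L, a receptor, rose by 0.70 and dusp1.S, a phosphatase of MAP kinases, fell by 1.32.

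Of 80 genes of gastrulation movements and polarity 29 rose and 17 fell, with a median of 0.19. Besides lamb1.L, lamb1.S rose by 2.23, and 3 of 4 laminin genes rose. cxcr4.L, a chemokine receptor, fell from 39.1, 51.0 and 57.8 RPKM to 13.3, 20.1 and 24.1 (-1.32 ± 0.17), and flrt3.S, a membrane protein that acts on cadherin adhesion, fell by 1.25.

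Of 58 wound and immediate early genes 6 rose, which is 10.3% against 15% of all genes, and 10 fell, which is 17.2% against 35.9%. The list median was -0.08, against -0.22 over all genes. Upper-quartile scaling gave 11 up and 9 down, quantile normalization 15 up and 9 down and the replicate block 10 up and 13 down. ZFP36L1 (Xelaev18022133m), a protein that destabilizes messenger RNA, fell by 2.12. Of 35 p53 and apoptosis genes 12 fell and 1 rose, near the 35.9% of all genes that fell. 7 fell under upper-quartile scaling, 8 under quantile normalization and 20 with the replicate block. mdm4.S, an inhibitor of p53, fell by 0.88. Of 65 hypoxia and glycolysis genes 24 fell and 2 rose, and the falls were 36.9% of the list, near the 35.9% of all genes. Quantile normalization gave 8 up and 19 down and the replicate block 5 up and 31 down. gpi.L, glucose-6-phosphate isomerase, fell from 21.3, 29.1 and 31.7 RPKM to 3.49, 6.69 and 12.3 (-1.90 ± 0.22). Of 10 left-right asymmetry genes 4 fell, which is 40%, near the 35.9% of all genes, and the list median of -0.18 was close to that of all genes. Among the 4 were both lefty copies, already given with the nodal genes, galnt11.L with -1.06 and bicc1.S with -0.56. Of 3 heart, blood and vessel genes aplnr.L, the apelin receptor, fell by 0.44.

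**Figure D3:**
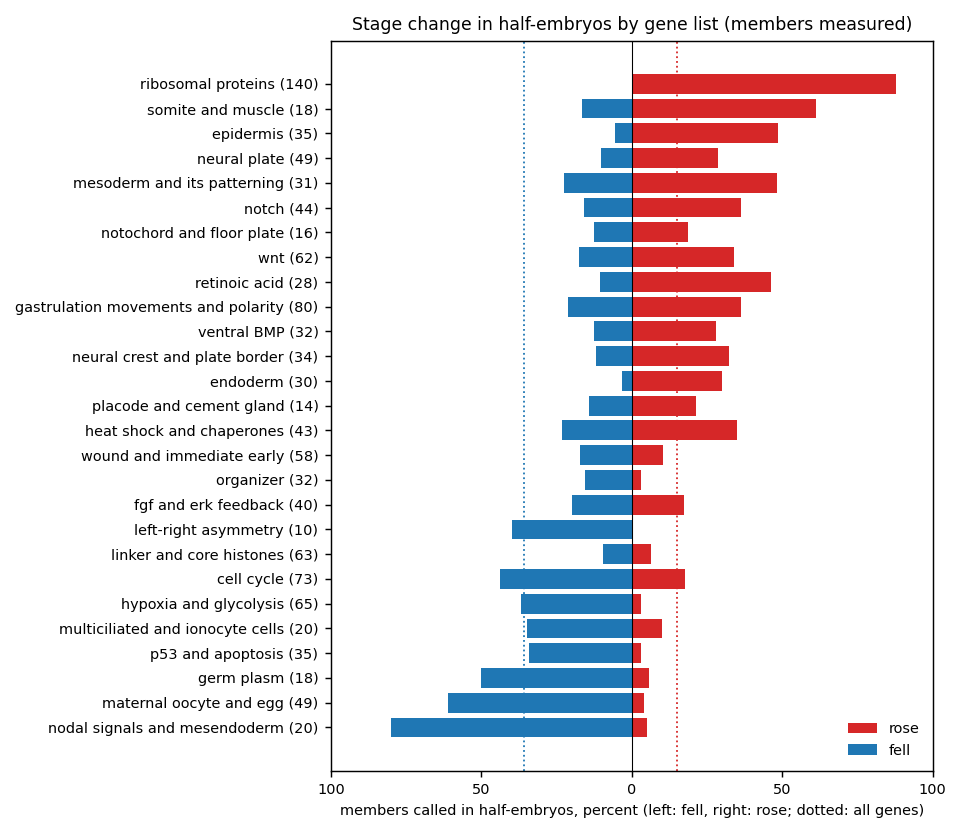
Share of the measured members of each list that rose (right, red) or fell (left, blue) in left and right half-embryos between stage 10.5 and stage 12, in percent, for lists of 10 or more members, ordered by median change. Dotted lines mark all genes, of which 15% rose and 35.9% fell. Ribosomal proteins, with 123 of 140 rising, and nodal signals and mesendoderm, with 16 of 20 falling, lie at the ends, and the organizer bar includes the left library of number 2 at stage 12.

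All but 1 of the genes called in both half-embryos and whole embryos changed in the same direction. In whole embryos 6306 genes were called, of which 1821 rose (12.2%) and 4485 fell (30%). Of these, 5441 were also called in half-embryos, which is 86.3% of the whole-embryo calls and 71.5% of the half-embryo calls, and 1538 rose in both and 3902 fell in both. A further 708 rises and 1457 falls in half-embryos were not called in whole embryos. The change in half-embryos rests on more libraries than that in whole embryos, so these counts are not like for like. With as many libraries as whole embryos, left alone gave 5226 calls and right alone 4719. 1 gene was called in opposite directions. It was CASC4 (Xelaev18020403m), a Golgi membrane protein in human, with 0.25 in half-embryos and -0.40 in whole embryos. Across genes, which are not independent replicates, the changes correlated with a Pearson r of 0.886 and a Spearman rho of 0.871, and those of left and right with a Pearson r of 0.895. The change in half-embryos averages more libraries than that of left or right alone, so these coefficients cannot be ranked against each other.

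Changes of 2-fold or more were called for 2654 genes in whole embryos and for 1986 in left and 1650 in right half-embryos, each from 3 libraries a stage. By number the picture was less even. Taking same-numbered libraries of both stages, 3948, 2707 and 1680 genes differed 2-fold or more in left half-embryos, 3849, 2461 and 1157 in right half-embryos and 3309, 3763 and 3010 in whole embryos. Half-embryos of number 1 thus exceeded their whole embryos, and those of numbers 2 and 3 lay below. These counts include the noise of single libraries and were not tested.

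**Figure D4:**
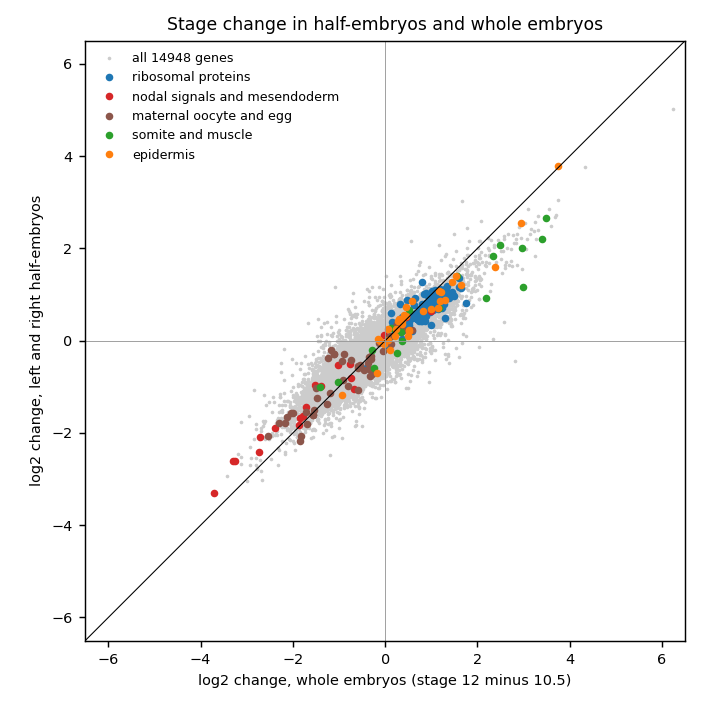
Log2 change from stage 10.5 to stage 12 in left and right half-embryos (vertical) against whole embryos (horizontal) for 14948 genes, with 5 lists coloured and a line of equal change. Points run along the line with a Pearson r of 0.886. Most ribosomal proteins lie on the rising side and most nodal and mesendoderm genes on the falling side, and other genes reach further out.

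The difference between these changes was tested directly, as the change in half-embryos minus that in whole embryos. None of 14948 genes (0%) was called by limma, 792 had an unadjusted p below 0.05, and the smallest adjusted p was 0.115. limma voom on the recovered reads called 0 genes as well, with 641 at an unadjusted p below 0.05. The median standard error of the difference was 0.30 on the log2 scale, 87.1% of genes lay within 0.5 of each other, and 235 differed by 1 or more, 118 with the higher change in half-embryos and 117 with the lower. A p that misses the threshold does not show that the changes were alike.

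Same-numbered libraries deviated together, so the number was also used as a block. With it 4 genes were called, and with the number as a block within each stage 10 were (0.0669%). With the mean of left and right of a number as 1 sample, and no block, limma called 0 genes, with 458 at an unadjusted p below 0.05. This fit again shared its spread with single libraries. The blocked fits take the left and right libraries of a number as separate samples, although they correlate. All 10 had the higher change in half-embryos, and each fell in whole embryos. mllt1.L, a subunit of the super elongation complex in human, held 9.21, 11.6 and 15.1 RPKM (lowest, median, highest) in half-embryos at stage 10.5 and 12.0, 12.9 and 13.9 at stage 12. In whole embryos it went from 17.5, 19.4 and 17.4 RPKM to 4.65, 8.81 and 8.03. The half-embryos thus lay below every whole embryo at stage 10.5 and above every one at stage 12. The choice of genes by these fits favours such an order, and the share of all genes that show it is not given here. The difference of changes was 1.40 ± 0.25, with a limma adjusted p of 0.115 without a block, 0.0470 with the block and 0.0161 with the block within each stage.

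orc1.L, the largest subunit of the origin recognition complex, showed the same order, under the same limit. Half-embryos held 8.76, 10.2 and 11 RPKM and then 8.72, 9.79 and 11.7, whereas whole embryos went from 14.1, 13.3 and 13.4 to 6.26, 7.15 and 7.59. Its difference was 0.87 ± 0.16, with a limma adjusted p of 0.115 without a block and 0.00603 with the block within each stage. ubap1.L, a subunit of the ESCRT-I complex, differed by 1.24 and cep192-like.L, named for a centrosome protein, by 0.94, and both were called with either block. The other 6, called with the block within each stage, were SUV39H1 (Xelaev18038114m), a histone H3 methyltransferase, sec24b.L, a coat protein of secretory vesicles, suds3.S, a subunit of the Sin3 deacetylase complex, cdcp1.L, a membrane protein, dolpp1.1, a phosphatase of dolichol, and CASC4. Their differences ranged from 0.65 for CASC4 to 1.26 for sec24b.L.

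**Figure D5:**
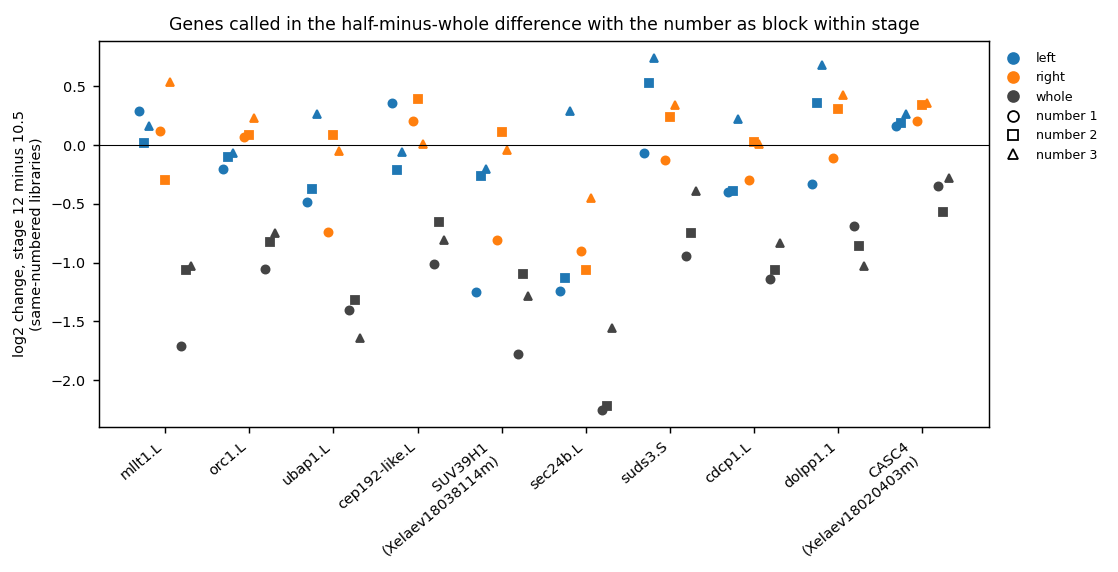
Log2 change from stage 10.5 to stage 12 between same-numbered libraries (vertical) for the 10 genes called in the difference with the number as a block within each stage, for left half-embryos, right half-embryos and whole embryos. In every gene the 3 whole-embryo changes are negative and lie below the left and right changes of their number, an order that the choice of genes by this fit favours.

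Of the genes with the smallest p and no call in any of these fits, hells.L, a chromatin remodeller of dividing cells, fell from a median of 10.8 to 4.36 RPKM in half-embryos and from 15.2, 15.7 and 15.3 to 2.73, 1.8 and 2.76 in whole embryos. Its difference of 1.11 ± 0.24 had a limma adjusted p of 0.463. On the other side, gatsl1.S went from 2.75 to 3.51 RPKM to 1.48 to 3.05 in half-embryos and from 0.479, 2.48 and 0.689 to 3.23, 3.33 and 3.47 in whole embryos, a difference of -1.51 ± 0.32 (limma adjusted p = 0.463). Without the whole-embryo library of number 2 at stage 10.5 it was -1.89, with a limma adjusted p of 0.0141. The next 4 on that side were NMRAL1 (Xelaev18002187m), a redox sensor, with -1.41, LOC100494818.L, closest to human NACC1, with -0.69, mplkip.S with -0.50 and sf3b5.S, a splicing factor subunit, with -0.43, none of which was called.

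The myogenic factor myod1 had differences of more than 1 in both copies, with no call. myod1.S held 8.59, 27.3 and 36.4 RPKM in half-embryos at stage 10.5 and 35.7, 50.4 and 78.9 at stage 12, and 3.07, 14.3 and 2.94 and then 34.0, 64.0 and 51.9 in whole embryos. At stage 10.5 the left library of number 1, at 8.59, was the only half-embryo library that did not lie above all whole embryos, and at stage 12 the groups overlapped. The difference of changes was -1.81 ± 0.60 with an unadjusted limma p of 0.0059, and that of myod1.L was -1.26 with 0.0056. For the lists, the median difference was -0.71 over the 4 Hox genes, -0.40 over the 18 somite and muscle genes and -0.33 over endoderm. It was -0.26 over organizer genes and -0.18 over ribosomal proteins. Over organizer genes it was 0.16 without the left library of number 2 at stage 12. It was 0.01 there without the right library of number 2 at stage 10.5 as well. Nodal and mesendoderm genes gave 0.26 and the 4 transcripts encoded in mitochondria 0.55, against 0.02 over all genes. No member of any list but orc1.L was called in a blocked fit.

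Left and right half-embryos were compared last. The difference of their changes gave 0 calls by limma, with 116 genes at an unadjusted p below 0.05 and a smallest adjusted p of 1. limma voom also called 0. Left alone gave 5226 calls and right alone 4719. The 5 smallest p-values belonged to echdc2.L, cflar-like.S, supt4h1.L, zdhhc8.L and gng3.L. echdc2.L, an enoyl-CoA hydratase-like protein, went from 0.732, 1.04 and 1.05 RPKM to 1.83, 1.56 and 2.38 on the left and from 1.35, 1.78 and 1.41 to 1.35, 0.752 and 0.431 on the right, and supt4h1.L, a transcription elongation factor, from 51.0, 43.3 and 48.3 to 74.6, 69.9 and 76.6 and from 47.0, 53.7 and 56.1 to 67.4, 53.4 and 51.0. Both have limma adjusted p-values of 1 and are given as values alone.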

How the data were processed

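Poly(A) RNA of left half-embryos, right half-embryos and whole embryos at stages 10.5 and 12 was sequenced as single-end reads from TruSeq V2 libraries, which keep no strand, per the labels' protocols. TopHat2 2.09 and DESeq appear in the submitters' processing notes, and no source used here names the counting tool. RPKM values were deposited by the authors as 1 table per stage, for genes of the JGI9.1 annotation with an average RPKM above 1, per the file headers. Of the 14948 genes in both tables, 10608 carry a gene symbol, 3494 a model ID matched to a human gene and 846 a bare ID.

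All 30 libraries, as log2(RPKM + 1), entered 1 fit of 10 group means with limma 3.58.1 (limma-trend, R 4.3.3). All 14948 genes passed the filter on low values, 3 libraries at an RPKM of at least 1. Tests were two-sided, adjusted by Benjamini-Hochberg over all genes and called at 0.05. Fold changes on this scale understate those of low genes. The script was first tested on simulated data. Whole reads recovered from the RPKM steps entered limma voom as an alternative.

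Replicate numbers come from the titles. Deviations from group means correlated at 0.227 or more between same-numbered libraries of the 2 stages (75 pairs, median 0.362), so the numbers pair the samples. Between other numbers they correlated at -0.042 or less. Deviations cancel within a group of 3 libraries, so these negative values are no separate evidence.

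Members and the 30 lists were chosen with earlier results of these data known. Genes named in the text are the 8 largest rises and falls without overlap between stages, up to 4 called members of a list by p, the smallest p-values of each difference and the tissue markers. Genes called in the blocked fits, families such as frizzled receptors, and genes listed at 1 stage alone were picked after values were seen.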

Additional observations from a re-analysis of the deposited data

Results flagged for a closer look

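With the replicate number as a block within each stage, the stage change of 10 genes differed between half-embryos and whole embryos by limma, and none of them was called without a block on the values as deposited. mllt1.L and orc1.L were also called without a block under upper-quartile scaling and under quantile normalization. The differences, on the log2 scale and as half-embryos minus whole embryos, were 1.40 for mllt1.L, 1.26 for sec24b.L, 1.24 for ubap1.L, 1.08 for dolpp1.1, 0.98 for SUV39H1 (Xelaev18038114m), 0.97 for suds3.S, 0.94 for cep192-like.L, 0.87 for cdcp1.L, 0.87 for orc1.L and 0.65 for CASC4 (Xelaev18020403m). The culture medium differed between the same groups, and its part cannot be told apart from that of the cut.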

How the results depend on the processing

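Of 122 counts of calls under alternatives, 115 stayed within 1.5 times the reported count. Many of these were differences with 0 calls that stayed at 0, and the fits without the filter were the same fits. Left alone and right alone were not among the 122. Right alone moved from 4719 calls to 2968 without its library of number 1 at stage 12. The half-embryo count of 7606 moved to 4962 with the mean of left and right of a number as 1 sample and to 4719 with right half-embryos alone, both with fewer libraries, and was 9191 with the replicate block. The difference between half-embryos and whole embryos, with 0 calls, gave 2 under upper-quartile scaling and 2 under quantile normalization (mllt1.L and orc1.L each time), 4 with the replicate block and 10 with the replicate block within each stage. Leaving out 1 library gave 6919 to 7679 calls in half-embryos, 5232 to 6352 in whole embryos, 0 to 1 in the difference, where gatsl1.S was called without the whole-embryo library of number 2 at stage 10.5, and 0 to 0 between left and right. Without the right library of number 2 at stage 10.5 and the left library of number 2 at stage 12, an alternative chosen after seeing the data, 6809 genes were called in half-embryos. Of 137 named genes called in half-embryos, 98 kept call and direction under every alternative, and 38 lost the call under at least 1. H3F3B (Xelaev18045270m) turned to -0.030 under quantile normalization, and echdc2.L, not called in half-embryos, gave -0.47 with right half-embryos alone. The cause was not tested. The filter on low values removed no gene. The median gene had 66 reads in a half-embryo library at stage 12, and how depth bears on the calls of low genes was not tested.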

Other observations

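Further gene families were picked after values were seen. Their counts in left and right half-embryos between stage 10.5 and stage 12 stand beside 15% of all genes rising and 35.9% falling. Of 27 genes of the V-type proton pump, which acidifies vesicles, 14 fell and 1 rose, with a median log2 change of -0.47 (-0.42 in whole embryos). Of 29 kinesin genes, motors of microtubules, 13 fell and 4 rose, with a median of -0.44. Of 28 nucleoporin genes 13 fell and 4 rose, with a median of -0.29, close to that of all genes. Of 15 genes of the SF3 splicing complex 8 rose and none fell, with a median of 0.40 (0.53 in whole embryos). Of 22 genes of the Hes family of repressors, most of which are also in the Notch list, 8 rose and 1 fell, with a median of 0.44. Of 55 nuclear genes of respiratory complex I 10 rose and 1 fell, with a median of 0.10. None of 4 VENTX models, members of the ventral BMP list, or 6 Sprouty genes, members of the FGF list, was called by limma.

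RXRG (Xelaev18025612m), the retinoid X receptor that fell in half-embryos, held 4.03, 7.12 and 9.53 RPKM (lowest, median, highest) in half-embryos at stage 10.5 and 36.1, 20.4 and 26.1 in the 3 whole embryos. At stage 12 it held 0.759, 1.3 and 1.61 in half-embryos and 21.6, 3.27 and 16.2 in whole embryos. The levels did not overlap at either stage, and the level difference at each stage was not tested. The share of all genes with such a gap between half-embryos and whole embryos is not given here, so the gap may not be particular to RXRG. ATP6 (Xelaev18004681m) stood the other way, with 1049 to 1927 RPKM in half-embryos and 531 to 899 in whole embryos at stage 10.5.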
